A study of Mus musculus with 4 samples.

Results

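Hepcidin, the peptide hormone that the liver secretes to control body iron, and the genes through which liver cells sense, take up, export and store iron were examined in livers of mice with and without *Usp21*, which encodes a ubiquitin-specific protease. The 10 genes were read by symbol from the transcript abundance table of the study, which holds 35739 genes. They are *Hamp* and *Hamp2* (hepcidin peptides), *Hfe*, *Tfr2*, *Hjv* and *Bmp6* (iron sensing and hepcidin control), *Tfrc* and *Slc40a1* (iron uptake and export) and *Fth1* and *Ftl1* (iron storage). The study asked which liver genes depend on *Usp21* and measured RNA by sequencing in 2 WT mice, numbered 2 and 3, and 2 *Usp21* KO mice, numbered 1 and 3, each giving 1 library. The mice were littermates from crosses of B6 mice with carriers of the KO allele, whose background mixed B6 with the strain of the ES cells used for targeting. They were used at 10 to 11 weeks of age on a normal diet under a 12 h light and dark cycle. The KO was constitutive, since Cre had removed exons 3 and 4 from every cell, so the measurements cannot separate a function of *Usp21* in hepatocytes from one elsewhere in the body. Levels are given in TPM (transcripts of each gene relative to all transcripts of the library), a value per transcript length, so that genes can be compared with each other within a library.

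Hepcidin binds ferroportin, the iron exporter encoded by *Slc40a1*, and causes its loss from the cell surface, which holds iron inside cells. Hepatocytes raise *Hamp* when sinusoidal endothelial cells release *Bmp6*, which acts with the co-receptor hemojuvelin (*Hjv*) through SMAD proteins, and when interleukin 6 acts through STAT3. *Hfe* and *Tfr2* take part in sensing transferrin-bound iron at the hepatocyte surface. Inside cells, iron regulatory proteins bind short hairpins called iron-responsive elements (IREs). Binding in the leader of a transcript blocks its translation, and binding in the trailer of *Tfrc* protects that transcript from decay, so ferritin is controlled largely at a step that RNA levels do not record.

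The hairpins are shown first because they divide the members into those whose RNA stability and those whose translation is known to follow iron. A search of the GENCODE M21 transcripts (GRCm38) for an unpaired C, 5 paired bases and a loop of CAGTG followed by A, C or T found 4 elements in the 3′ UTR of *Tfrc* and 1 in the 5′ UTR of *Slc40a1*, *Fth1* and *Ftl1* each. No match was found in the other 6 members. In each sequence below, written 5′ to 3′ on the strand of the gene, capitals mark the loop of 6 bases, and the coordinates give the 17 bases from the unpaired C to the end of the upper stem.
Tfrc, 3′ UTR, chr16:32631225-32631241, plus strand: aattatcggaagCAGTGCcttccataatt
Tfrc, 3′ UTR, chr16:32631604-32631620, plus strand: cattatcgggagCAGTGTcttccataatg
Tfrc, 3′ UTR, chr16:32631669-32631685, plus strand: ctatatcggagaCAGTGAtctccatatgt
Tfrc, 3′ UTR, chr16:32631716-32631732, plus strand: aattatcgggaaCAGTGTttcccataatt
Slc40a1, 5′ UTR, chr1:45925471-45925487, minus strand: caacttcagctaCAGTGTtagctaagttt
Fth1, 5′ UTR, chr19:9982738-9982754, plus strand: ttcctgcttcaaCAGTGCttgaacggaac
Ftl1, 5′ UTR, chr7:45459785-45459801, minus strand: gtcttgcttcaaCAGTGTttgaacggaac
The ferritin elements have the same upper stem letters, ttcaa on the left and ttgaa on the right. Of 21782 protein-coding genes searched, 21 (0.0964%) held such a hairpin in a 5′ UTR and 98 (0.450%) in a 3′ UTR, and a match is a description of the letters, not evidence of binding.

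*Hamp* and *Hamp2* lie next to each other on the minus strand of chromosome 7, and their coding sequences, 249 bases each, are 93.6% identical with 16 differing bases. The last 30 coding bases, which encode the end of the mature peptide, are shown because 9 of the differing bases fall there. Capitals mark the bases that differ.
Hamp, coding end, chr7:30942480-30942509, minus strand: aaTTccCAGtgtggtatctgttgCAaaACa
Hamp2, coding end, chr7:30922511-30922540, minus strand: aaACccTCCtgtggtatctgttgTGaaGAa
Upstream of the start, the RefSeq promoter windows (GRCm38.p6, 250 bases before to 50 after each start) were searched on both strands for GGCGCC, the core of the BMP-responsive element. A total of 8 members had a window there. *Hamp* held GGCGCC 109 bases before its start, and *Hamp2* held none in this window. The stretch is shown with the motif in capitals.
Hamp, GGCGCC, chr7:30944121-30944150, minus strand: tcccgcctgtttGGCGCCactattttcttg
Of 32851 promoter windows, 11.9% held GGCGCC. Among the other members, the window of *Tfrc* held GGCGCC 89 bases before its start.

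Before the results, the libraries were checked against their labels. *Usp21* itself stood at 4.07 and 6.29 TPM in WT against 1.64 and 2.93 TPM in KO, lower in both KO libraries but not at 0. These gene totals do not show whether reads fell in the deleted exons. *Alb*, the hepatocyte protein albumin, reached 43181 and 32024 TPM in WT against 31006 and 27475 TPM in KO, the level of a hepatocyte-rich tissue. KO replicate 1 stood apart, since it gave the highest value of the 4 libraries for 45.9% of the 9581 genes averaging 1 TPM or more, against 15.2% to 21.6% in the other libraries. WT replicate 3 stood apart in inflammatory genes: *Saa1* was at 1089 TPM there and between 47.8 and 162 TPM in the other libraries, and the neutrophil gene *S100a8* was at 29.1 TPM against 0.738 to 2.26 TPM. Each of these libraries is named where a member's result rests on it, with the value without it. For other genes such values are given for some only. The number of reads behind the TPM values is unknown.

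Across all 9581 genes tested with limma on log2(TPM + 1), 8 (0.0835%) passed an adjusted p of 0.05 and 1005 (10.5%) an unadjusted one. None of the 10 members passed either threshold, and none changed 2-fold or more, a size that 3.68% of all genes reached. Missing a threshold does not show that a gene did not differ. With 2 libraries a group, an exact permutation test of 1 gene cannot go below p = 0.333, so the limma p-values depend on the spread borrowed from other genes. The members' median log2 fold change was -0.013, with 5 above and 5 below 0, beside a median of 0.15 over all genes, of which 66.7% were above 0. When each library was instead scaled to an equal upper quartile, the median over all genes was 0.036, 54.0% were above 0, and 3 of the 10 members were. That scaling also moved the share of higher values among genes with an unadjusted p under 0.05 from 80.6% to 56.0%, so each difference below is best read against the shift of all genes. The groups did not overlap for 2 members, *Fth1* and *Ftl1*, both lower in KO, whereas 45.3% of all genes had non-overlapping groups and 10.9% had KO lower and 34.4% KO higher.

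**Figure D1:**
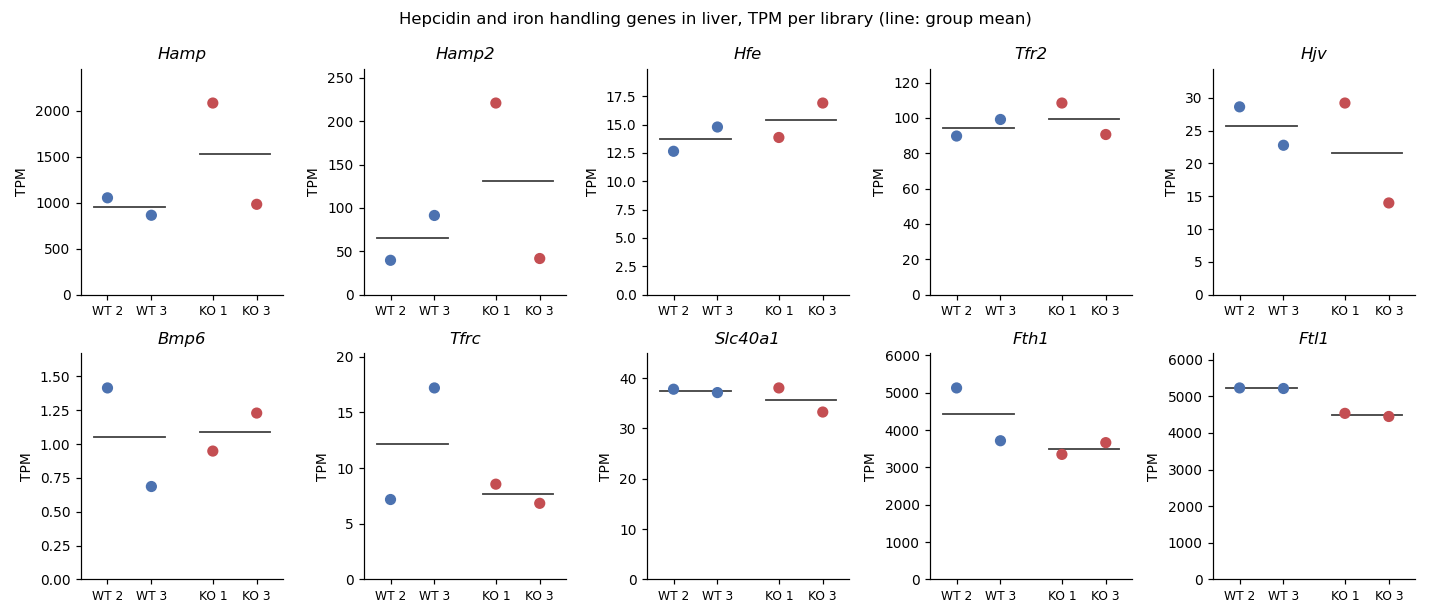
Each panel plots the TPM of 1 gene (vertical axis, from 0) in the WT libraries (blue) and *Usp21* KO libraries (red), with a line at each group's mean. *Hamp* and *Hamp2* are highest in KO replicate 1 with the other KO library within or near the WT values, *Tfrc* is highest in WT replicate 3, and both ferritin genes are lower in the KO libraries.

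The members' levels spanned a wide range in these livers. *Ftl1* (mean 4857 TPM) and *Fth1* (3963 TPM), the light and heavy chains of the ferritin shell, ranked 37 and 41 among all genes by mean TPM, and *Hamp* (1245 TPM) ranked 90. Next came *Hamp2* (98.4 TPM), *Tfr2* (97.0 TPM), *Slc40a1* (36.5 TPM), *Hjv* (23.6 TPM), *Hfe* (14.5 TPM) and *Tfrc* (9.94 TPM). *Bmp6* was last at 1.07 TPM, at rank 9445. Neighbours in this order whose ranges over the 4 libraries overlapped were *Ftl1* and *Fth1*, *Hamp2* and *Tfr2*, *Hjv* and *Hfe*, and *Hfe* and *Tfrc*. Within each library, *Ftl1* was nevertheless above *Fth1*.

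*Hamp* (ENSMUSG00000050440, chr7:30942368-30944032), which encodes hepcidin, was at 1053 and 863 TPM in WT against 2084 and 982 TPM in KO. The higher mean in KO came from replicate 1 alone, and the other KO library lay between the WT libraries. The means were 958 ± 134 TPM in WT and 1533 ± 779 TPM in KO (SD, n = 2 each). The log2 fold change was 0.59 (SE 0.38, 95% interval -0.35 to 1.52, limma adjusted p = 0.579), a difference within the spread between libraries. It was 0.043 without KO replicate 1 and 1.13 without KO replicate 3, so the size of the difference was set by which KO library was kept. The interval therefore spans both no change and a change of more than 2-fold.

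*Hamp2* (ENSMUSG00000056978, chr7:30922372-30924681), the second mouse hepcidin gene, was at 39.5 and 91.3 TPM in WT against 221 and 41.6 TPM in KO. The groups overlapped, KO replicate 1 being the highest of the 4 and KO replicate 3 lying just above the lower WT library. The log2 fold change was 0.67 (SE 0.81, 95% interval -1.34 to 2.68, limma adjusted p = 0.765), and it ran from -0.52 without KO replicate 1 to 1.86 without KO replicate 3. The ratio of *Hamp* to *Hamp2* varied with the mouse and not with the genotype: 26.6 and 9.45 in WT, 9.43 and 23.6 in KO. Of the 31-base stretches of *Hamp* transcripts, 33.7% also occur in *Hamp2*, so the division of reads between the genes is an estimate. Their summed level, which depends less on that division, stood at 1092 and 954 TPM in WT against 2305 and 1024 TPM in KO, with a log2 fold change of 0.59.

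The genes whose profile was most like that of *Hamp*, by Euclidean distance of the centred log2(TPM + 1) values over the 4 libraries, were *Agxt* (distance 0.0834), which encodes a peroxisomal enzyme of glyoxylate metabolism, *Meiob* (0.0914) and *3110053B16Rik* (0.0999). *Agxt* followed the same order of libraries, with 186 and 142 TPM in WT against 363 and 174 TPM in KO. *Hamp2* was only at rank 8542 in likeness to *Hamp*, with a distance of 1.39. With 4 libraries such a likeness is a description of a few values.

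**Figure D2:**
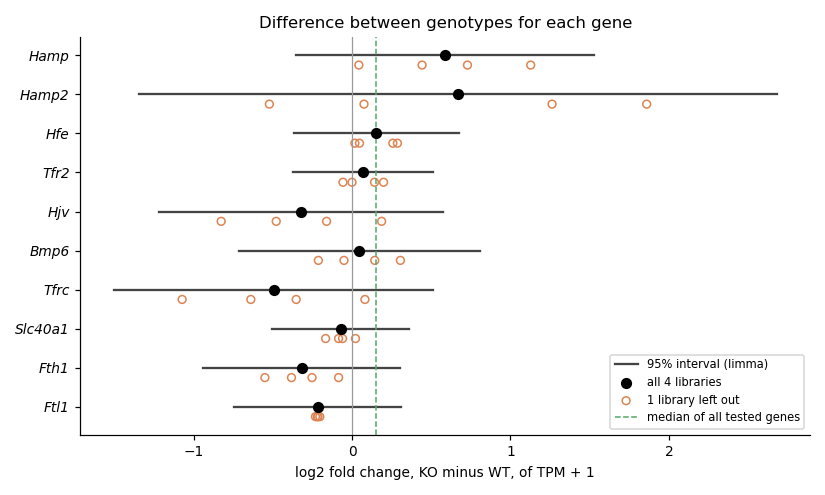
Black points give the log2 fold change of each gene, KO minus WT, on the log2(TPM + 1) scale with the 95% interval from limma (bars); open circles give the value with 1 library left out, and the dashed line marks the median of all tested genes, 0.15. All 10 intervals include 0, and the open circles of *Hamp2* run from -0.52 to 1.86 while those of *Ftl1* stay between -0.23 and -0.20.

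Among the genes that sense iron and control hepcidin, no difference exceeded the spread between libraries. *Hfe* (ENSMUSG00000006611, chr13:23702034-23710854, minus strand), an MHC class I-like protein lost in hereditary haemochromatosis, was at 12.6 and 14.8 TPM in WT against 13.9 and 16.9 TPM in KO. Its groups overlapped, with a log2 fold change of 0.15 (95% interval -0.37 to 0.67, limma adjusted p = 0.794). *Tfr2* (ENSMUSG00000029716, chr5:137569840-137587481, plus strand), the transferrin receptor of hepatocytes that acts as a sensor, was at 89.8 and 99.1 TPM in WT against 108 and 90.6 TPM in KO. Its log2 fold change was 0.071 (95% interval -0.37 to 0.51, limma adjusted p = 0.891) and became -0.062 with upper quartile scaling. For both genes the interval leaves out a change of 2-fold in either direction.

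*Hjv* (ENSMUSG00000038403, chr3:96525172-96529210, plus strand) was at 28.6 and 22.8 TPM in WT against 29.2 and 14.0 TPM in KO. KO replicate 1 lay above both WT libraries and KO replicate 3 below both. The log2 fold change was -0.32 (SE 0.36, 95% interval -1.22 to 0.58, limma adjusted p = 0.747), and it changed sign to 0.19 without KO replicate 3. *Bmp6* (ENSMUSG00000039004, chr13:38345107-38500302, plus strand) was at 1.42 and 0.687 TPM in WT against 0.949 and 1.23 TPM in KO. Its KO values lay between the WT values, and the log2 fold change was 0.046 (95% interval -0.72 to 0.81, limma adjusted p = 0.963). At this level the direction was not stable, since it was -0.019 with upper quartile scaling and between -0.21 and 0.31 with 1 library left out. In bulk tissue, fewer cells of a type and less RNA per cell cannot be told apart, which matters for *Bmp6* because endothelial cells are a minority in liver. The summed level of 15 sinusoidal endothelial markers was 108 and 80.3 TPM in WT against 102 and 116 TPM in KO, and its part in the *Bmp6* values was not tested.

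*Tfrc* (ENSMUSG00000022797, chr16:32608920-32632794, plus strand), the receptor through which most cells take up transferrin-bound iron and the carrier of the 4 hairpins shown above, was at 7.18 and 17.2 TPM in WT against 8.55 and 6.83 TPM in KO. WT replicate 3 was high, and the other 3 libraries were close together. The log2 fold change of -0.50 (SE 0.41, 95% interval -1.51 to 0.51, limma adjusted p = 0.657) became 0.081 on leaving out WT replicate 3 and -1.07 on leaving out WT replicate 2. The high library is the one in which *Saa1* was high. The summed level of 8 neutrophil markers was 44.9 TPM there and 2.27 to 4.31 TPM in the others, nearly all of it from *S100a8* (29.1 TPM) and *S100a9* (12.7 TPM), while *Ngp* and *Camp* were at 0 in that library and *Ltf* was at 0 in all. The part of neutrophils in the *Tfrc* value was not tested. In each library *Tfr2* RNA exceeded *Tfrc* RNA, by 12.5 and 5.77 times in WT and 12.7 and 13.3 times in KO.

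*Slc40a1* (ENSMUSG00000025993, chr1:45908068-45926523, minus strand), the exporter that hepcidin acts on, was the steadiest member together with *Hfe*, *Tfr2* and *Ftl1*, at 37.8 and 37.1 TPM in WT against 38.0 and 33.2 TPM in KO. The log2 fold change was -0.072 (SE 0.17, 95% interval -0.50 to 0.36, limma adjusted p = 0.886). Ferroportin is abundant in Kupffer cells, the macrophages of the liver, whose 15 markers summed to 243 and 282 TPM in WT against 134 and 334 TPM in KO. Taken gene by gene, 10 of the 14 tested Kupffer markers had a log2 fold change below 0 and 4 above. Their median was -0.24, beside 0.15 over all genes. KO replicate 3 nevertheless held the highest value for 13 of the 15 markers. *Clec4f*, which marks Kupffer cells, was at 32.1 and 39.2 TPM in WT against 30.0 and 58.0 TPM in KO, while the macrophage gene *Adgre1* was at 1.79 and 3.46 TPM in WT against 1.13 and 3.84 TPM in KO. Thus KO replicate 3, with the lowest *Slc40a1*, had the highest Kupffer cell sum, and whether the cell mix bore on *Slc40a1* was not tested.

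The ferritin genes were the members for which both KO libraries lay below both WT libraries. *Ftl1* (ENSMUSG00000050708, chr7:45457944-45459884, minus strand) was at 5229 and 5214 TPM in WT against 4535 and 4450 TPM in KO, that is 5221 ± 10.8 TPM against 4492 ± 60.3 TPM (SD, n = 2 each). The gap between the groups was much wider than the gaps within them, yet the log2 fold change was small at -0.22 (SE 0.21, 95% interval -0.74 to 0.31, limma adjusted p = 0.705). Leaving out any 1 library kept it between -0.23 and -0.20. The SE from limma draws on the spread of other genes of like abundance; with the gene's own spread alone the unadjusted p was 0.00405, and the limma adjusted p without moderation was 0.405. Of the 31-base stretches of *Ftl1* transcripts, 54.4% also occur in the pseudogene *Ftl1-ps1*, so the division of reads between them is an estimate. As divided, *Ftl1-ps1* was at 5.22 to 6.72 TPM. Adding the genes with more than 50% of their 31-base stretches in common with *Ftl1* left the log2 fold change at -0.22.

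*Fth1* (ENSMUSG00000024661, chr19:9980598-9985098, plus strand), whose product oxidises iron for storage, was at 5127 and 3714 TPM in WT against 3348 and 3663 TPM in KO. The groups were separate by a small margin, WT replicate 3 lying close to KO replicate 3. The log2 fold change was -0.32 (SE 0.25, 95% interval -0.94 to 0.30, limma adjusted p = 0.643), and it ran from -0.55 without WT replicate 3 to -0.085 without WT replicate 2. Together the ferritin transcripts made up 1.04% and 0.894% of all TPM in WT and 0.790% and 0.813% in KO. The ratio of *Ftl1* to *Fth1* was 1.02 and 1.40 in WT and 1.35 and 1.21 in KO, so the balance of the chains did not separate the genotypes. With upper quartile scaling the log2 fold changes were -0.35 for *Ftl1* and -0.45 for *Fth1*, and *Slc40a1* became the third member with both KO libraries lower. Under that scaling 1783 of all 9581 genes had both KO libraries lower. *Alb* was also lower in both KO libraries, and so was the haemoglobin gene *Hba-a1* (133 and 139 TPM in WT against 107 and 90.7 TPM in KO). *Hbb-bs*, another haemoglobin gene, was at 418 and 365 TPM in WT against 380 and 296 TPM in KO. The hepatocyte list was mixed: of its 14 markers 7 were higher and 7 lower, with a median log2 fold change of 0.033. In it, *Apob* (0.52), *Hnf4a* (0.59), *Tat* (0.79) and *Fabp1* (0.51) were higher in both KO libraries. The blood list leaned to lower values: of 6 tested markers, 5 had a log2 fold change below 0 and 1 above. Its median was -0.34, beside 0.15 over all genes. For 3 of the 5 the groups did not overlap, and 1, *Hba-a1*, had an unadjusted p under 0.05 by limma. The marker above 0 was *Alas2* (0.34), and the haemoglobin gene *Hba-a2* had -0.014. *Alb* was the largest part of the hepatocyte sum. The hepatocyte markers summed to 99339 and 81208 TPM in WT against 86978 and 75965 TPM in KO, and 9 blood markers to 914 and 894 TPM against 902 and 721 TPM. The part of blood or of cell mix in the ferritin values was not tested.

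The other genes with a 5′ UTR hairpin had no common direction. A total of 16 genes averaging 1 TPM or more held one, ferritin genes and *Slc40a1* included. In KO, 8 had a higher and 8 a lower mean, and their median log2 fold change was 0.029 beside 0.15 over all genes. Of these 16, 0 had an unadjusted p under 0.05 by limma, against 10.5% of all genes. Among them, *Alas2*, the erythroid enzyme that opens haem synthesis, was at 46.3 and 60.2 TPM in WT against 89.4 and 50.2 TPM in KO.

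The BMP-SMAD pathway, which carries the iron signal to *Hamp*, had a higher mean in KO for most of its genes, and KO replicate 1 held many of the highest values. Of 28 listed genes 22 were tested: 4 had an unadjusted p under 0.05, all higher, beside 8.45% of all genes higher and 2.04% lower at that p, and 0 passed the adjusted threshold in limma. Their median log2 fold change was 0.32, with 19 higher and 3 lower, beside 66.7% higher among all genes. It was 0.070 without KO replicate 1. That library held the highest value for 16 of the 27 genes found in the table, beside 45.9% of all tested genes. With upper quartile scaling 15 of the 22 were higher, beside 54.0% of all genes. Under that scaling 2 had an unadjusted p under 0.05, each higher, beside 492 of all 9581 genes higher and 387 lower. With TPM as deposited, the 4 genes under that p were *Atoh8*, *Smad9*, the activin receptor *Acvr2a* and the activin antagonist *Fst*. *Atoh8*, a transcription factor induced by BMP signals, had a log2 fold change of 1.13 (limma adjusted p = 0.373). Those of *Smad9* and *Fst* were 0.69 (limma adjusted p = 0.469) and 0.89 (limma adjusted p = 0.464). That of *Acvr2a* was 0.60 (limma adjusted p = 0.472), but -0.96 by limma on CPM, -0.75 by edgeR and -0.83 by DESeq2. *Smad9* was at 1.74 and 1.19 TPM in WT against 3.06 and 2.87 TPM in KO. *Fst* was at 0.295 and 1.01 TPM in WT against 1.93 and 2.04 TPM in KO. *Acvr2a* was at 2.53 and 2.37 TPM in WT against 4.23 and 4.21 TPM in KO, so all but *Atoh8* were low. The CPM, edgeR and DESeq2 values of *Acvr2a* came from the count-based table described below, whose strand setting is not given.

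Among transcripts that BMP signals are known to induce, most were highest in KO replicate 1, while *Atoh8* was high in both KO libraries. *Id1* was at 5.48 and 5.06 TPM in WT against 12.9 and 3.36 TPM in KO. *Id2* was at 61.1 and 49.6 TPM in WT against 162 and 52.4 TPM in KO, and *Id3*, named after its values were seen, at 21.6 and 15.0 TPM in WT against 79.8 and 11.0 TPM in KO. Their log2 fold changes, 0.74 and 0.71, became -0.068 and -0.67 without KO replicate 1. *Smad7*, the inhibitory SMAD that *Hamp*-inducing signals raise, was at 1.27 and 1.62 TPM in WT against 2.53 and 0.579 TPM in KO. These 4 genes, like *Hamp* and *Hamp2*, had their maximum in KO replicate 1, as did 45.9% of all tested genes, and each of *Id1*, *Id3* and *Smad7* had its minimum in KO replicate 3. *Atoh8* had another order of libraries, at 5.10 and 4.60 TPM in WT against 11.1 and 12.5 TPM in KO. *Tmprss6*, the serine protease that cleaves hemojuvelin and so restrains *Hamp*, was at 147 and 132 TPM in WT against 118 and 124 TPM in KO, with a log2 fold change of -0.20 (limma adjusted p = 0.644). The well expressed *Furin* and *Fkbp1a* had log2 fold changes of 0.058 and 0.0050. *Erfe*, the hormone of erythroid precursors that lowers *Hamp*, and *Nog* were listed at 0 in all libraries. The summed level of stellate cell markers also peaked in KO replicate 1, at 201 TPM against 98.4 to 138 TPM in the others. That library held the highest value for 10 of the 13 stellate markers, beside 45.9% of all tested genes. Of 9 stellate markers tested, 9 had a log2 fold change above 0, beside 66.7% of all genes. Their median was 0.41 beside 0.15 over all genes. The stellate marker *Lrat* did not peak in KO replicate 1, at 2.02 and 1.24 TPM in WT against 1.96 and 2.09 TPM in KO. The part of stellate cells in the values of the BMP target genes was not tested.

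**Figure D3:**
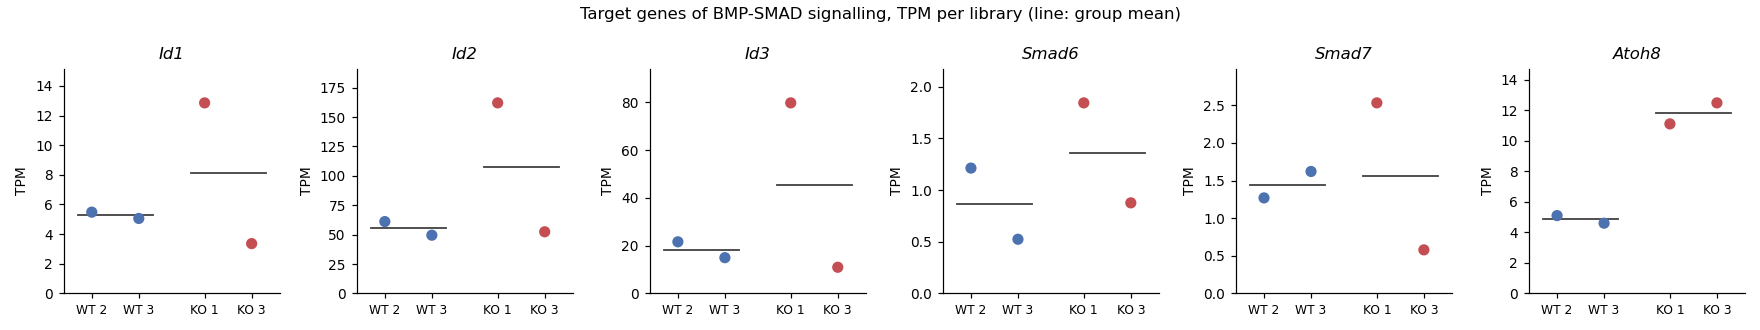
Each panel plots the TPM (vertical axis, from 0) of a gene known to respond to BMP-SMAD signalling in the WT (blue) and *Usp21* KO (red) libraries, with a line at each group's mean. *Id1*, *Id2*, *Id3*, *Smad6* and *Smad7* are highest in KO replicate 1, whereas *Atoh8* is at 11.1 and 12.5 TPM in the KO libraries and near 5 TPM in WT.

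The IL-6-STAT3 and acute phase genes, the inflammatory route to *Hamp*, were mixed. Of 21 tested genes 11 were higher and 10 lower, with a median log2 fold change of 0.13, beside 66.7% higher and a median of 0.15 among all genes. An unadjusted p under 0.05 was reached by 3, all higher, beside 8.45% of all genes higher and 2.04% lower at that p. These were the pentraxin *Apcs* (51.3 and 80.3 TPM in WT against 224 and 138 TPM in KO, log2 fold change 1.43, limma adjusted p = 0.443), *Stat3* (0.71, adjusted p = 0.464) and the receptor chain *Il6st* (0.53, adjusted p = 0.472). The fibrinogen genes *Fga*, *Fgb* and *Fgg* had log2 fold changes of 0.51, 0.54 and 0.56 (limma adjusted p = 0.478, 0.516 and 0.495) with both KO libraries above WT, and the haemoglobin scavenger *Hp* had -0.61 (adjusted p = 0.496) with both below. Without KO replicate 1 the fibrinogen values were 0.34, 0.21 and 0.27, and without WT replicate 3 that of *Hp* was -0.26. *Il6* was listed at 0 in all libraries. *Socs3*, a feedback inhibitor induced by STAT3 and named after its values were seen, was at 1.80 and 15.0 TPM in WT against 4.72 and 1.33 TPM in KO. The library with the highest *Socs3* and *Saa1*, WT replicate 3, had the lowest *Hamp* of the 4 at 863 TPM, while its *Hamp2*, 91.3 TPM, was the second highest. Without WT replicate 3 the median of the list was 0.52. With upper quartile scaling it was -0.00086, beside 0.036 over all genes. Under that scaling 3 genes had an unadjusted p under 0.05, 2 higher and 1 lower, beside 492 of all 9581 genes higher and 387 lower.

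Other genes of iron transport and metabolism had a median log2 fold change of 0.16, beside 0.15 over all genes. Of 33 tested, 22 were higher and 11 lower, beside 66.7% higher among all genes, and 15 had both KO libraries above WT, beside 34.4% of all genes. At an unadjusted p under 0.05 there were 5 on the higher side and 1 on the lower, beside 8.45% and 2.04% of all genes, and 0 passed the adjusted threshold in limma. *Trf*, plasma transferrin and the most abundant of them, was at 11190 and 10975 TPM in WT against 12287 and 10402 TPM in KO (log2 fold change 0.029). The haem carrier *Hpx* (-0.090), the ferroxidase *Cp* (0.18) and *Cisd1* of the mitochondrial outer membrane (-0.092) also had small values. Those under an unadjusted p of 0.05 were *Ncoa4*, the receptor that delivers ferritin to lysosomes (27.7 and 24.5 TPM in WT against 41.4 and 36.4 TPM in KO, log2 fold change 0.56, limma adjusted p = 0.464), the importer *Slc39a14* (0.59, adjusted p = 0.472), the endocytic adaptor *Picalm* (0.42, adjusted p = 0.473), the ferritin receptor *Scara5* (1.23, adjusted p = 0.464), the metalloreductase *Steap2* (1.06, adjusted p = 0.461) and, lower, the iron-sulphur cluster protein *Glrx5* (-0.43, adjusted p = 0.468). *Scara5* was at 0.602 and 0.838 TPM in WT against 4.40 and 2.01 TPM in KO, and *Steap2* at 0.321 and 0.326 TPM in WT against 1.73 and 1.78 TPM in KO, so both were low. *Ftmt* and *Hephl1* were listed at 0. KO replicate 1 held the highest value for 20 of the 39 genes found in the table, beside 45.9% of all tested genes. Without it, *Slc39a14* had a log2 fold change of 0.38 and *Scara5* 0.81. With upper quartile scaling the median was 0.043, beside 0.036 over all genes. Under that scaling 3 were higher and 1 lower at an unadjusted p under 0.05, beside 492 of all 9581 genes higher and 387 lower.

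The count-based table of the same libraries could not repeat the comparison for most members. The reads recovered from it numbered 148164 and 110427 in WT and 145306 and 102898 in KO, and 8 of the 10 members, *Fth1* and *Ftl1* among them, were at 0 reads in all libraries. *Hamp* had 1 read, in KO replicate 3, and *Bmp6* had 11 and 19 reads in WT and 13 and 18 reads in KO. For a gene at 0 the limit was 3 reads (20.0 to 27.7 CPM), which covers counting error only. Of 686 genes at 100 TPM or more in all libraries, 428 were at 0 in this table, so 0 is listed there for abundant genes too.

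Some genes annotated on the strand opposite to members did have reads there. The long noncoding gene *Gm44662* runs across *Hamp* and *Hamp2* on the other strand and shares 89 exonic bases with *Hamp2* and 0 with *Hamp*. It had 42 and 88 reads in WT and 241 and 38 reads in KO (95% Poisson intervals 30.3 to 56.8, 70.6 to 108, 212 to 273 and 26.9 to 52.2), that is 322 and 807 CPM in WT and 1610 and 350 CPM in KO. KO replicate 1 was highest and WT replicate 3 next, as for *Hamp2* TPM. Its log2 fold change was 0.56 by limma on log2(CPM + 1), with an adjusted p of 0.650. *Gm10252*, opposite *Ftl1* with 355 shared exonic bases, had 2357 and 1511 reads in WT and 1561 and 1388 reads in KO, or 18094 and 13862 CPM against 10427 and 12802 CPM. Both KO libraries were lower on the CPM scale, as for *Ftl1* TPM, with a log2 fold change of -0.45 (limma adjusted p = 0.650). *Txndc5*, opposite the 3′ end of *Bmp6* with 224 shared exonic bases, was at 39.5 to 61.2 TPM, far above *Bmp6*, but had 5 and 4 reads in WT and 4 and 1 in KO in the count-based table, fewer than *Bmp6*. *4930579J19Rik*, also opposite *Bmp6*, had 0 reads in all libraries. The strand setting of the counting is not given in the sources used here, and without it reads from a gene and its antisense partner cannot be told apart.

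**Figure D4:**
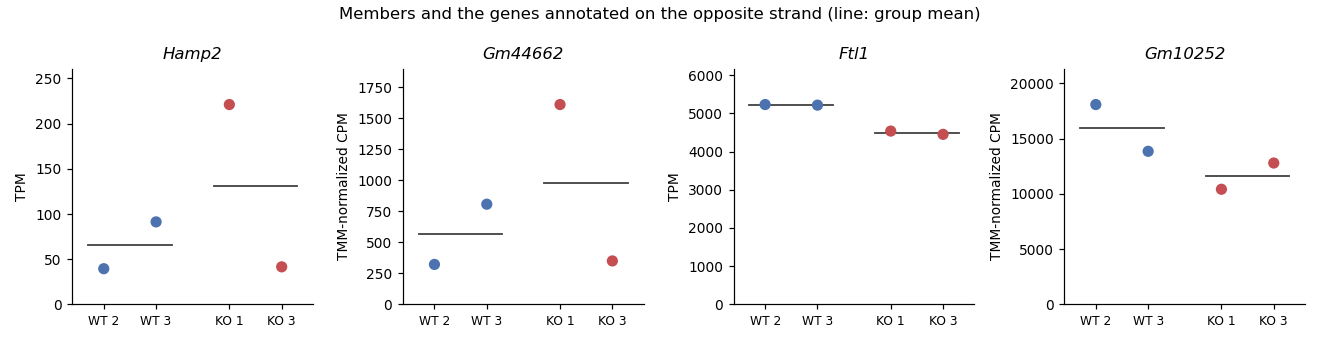
The panels plot *Hamp2* and *Ftl1* in TPM and the genes on their opposite strands, *Gm44662* and *Gm10252*, in TMM-normalized CPM (vertical axes, from 0) for the WT (blue) and *Usp21* KO (red) libraries, with lines at group means. *Gm44662* has its highest value, 1610 CPM, in the library where *Hamp2* is highest, and both KO libraries are lower than both WT libraries for *Ftl1* and *Gm10252*.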

How the data were processed

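RNA was extracted from livers with ISOGEN II and sequenced on an Illumina MiSeq. The authors deposited TPM from salmon for 35739 genes, and deposited them again as log2(TPM + 1). They also deposited TMM-normalized CPM from HTSeq counts for 55335 genes, a signal whose columns have unequal totals and whose logarithms carry an added constant. Both tables name mm10, and versions and annotation release are not given in the sources used here. Whole counts of reads were recovered from the deposited CPM (100% of values whole within 0.02 reads, 6.68 to 9.22 CPM per read).

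Genes averaging 1 TPM or more were fitted by genotype with limma 3.58.1 (lmFit, eBayes with trend, R 4.3.3) on log2(TPM + 1), a pseudocount of 1, two-sided, with Benjamini-Hochberg adjustment over 9581 genes. A log2 fold change on that scale understates the change of low genes. The alternatives were other pseudocounts, filters and scalings, unmoderated variances, limma on CPM, edgeR 4.0.16 and DESeq2 1.42.0 on the recovered reads, each library left out, and near-identical copies summed. The steps were tested on simulated data. The members, the lists and the tests were chosen with earlier results of these data known. All members were named. From the BMP-SMAD, IL-6-STAT3 and other iron lists, genes with an unadjusted p under 0.05, the 4 highest by mean TPM, and *Tmprss6*, *Trf*, *Smad7* and *Id1* were named, with fixed cell markers, *Usp21* and the 3 genes most like *Hamp*. *Gm44662*, *Gm10252*, *Txndc5*, *Saa1*, *Alas2*, *Smad6*, *Apob*, *Hnf4a*, *Tat*, *Fabp1*, *Hba-a2*, *S100a9*, *4930579J19Rik* and the genes listed at 0 were added after their values were seen. Transcripts and positions came from GENCODE M21 (GRCm38), where *Hjv* is named Hfe2. Replicates were numbered as separate mice in the labels, 0 columns of sample values were left unused, and no batch was given. Some items of the searched lists and windows are not reported here.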

Additional observations from a re-analysis of the deposited data

Results flagged for a closer look

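*Gm44662*, annotated opposite *Hamp* and *Hamp2*, had 241 recovered reads in *Usp21* KO replicate 1, against at most 88 in a WT library, in a count-based table that holds 0 reads for *Hamp2*. The signal lies outside the TPM values on which the comparisons rest, and the other KO library had 38 reads. By edgeR on the recovered reads the log2 fold change was 0.82 (adjusted p = 0.821), and by DESeq2 it was 0.77 (adjusted p = 0.998). Groups of 2 libraries are too small for a check of single outlying samples.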

How the results depend on the processing

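No paired analysis was possible because the labels give WT the numbers 2 and 3 and KO the numbers 1 and 3, so that the groups share a single number. Over all settings, 106 other values of the members' log2 fold changes were computed, of which 12 had the opposite sign and 0 passed the adjusted threshold. *Hamp*, *Hfe*, *Fth1* and *Ftl1* had none of opposite sign. The 12 include the count-based values of *Bmp6*. Genes past the adjusted threshold, 8 as reported, numbered 12 with edgeR, 9 and 6 with pseudocounts of 0.1 and 5, 8 at a mean of at least 5 TPM and with upper quartile scaling, 4 without a filter, 1 with TMM-normalized CPM, 1 with DESeq2, 0 without moderation, and 0 with any 1 library left out. Genes changed at least 2-fold, 353 as reported, numbered 820 and 115 with pseudocounts of 0.1 and 5, 203 at a mean of at least 5 TPM, 3134 with CPM, 2915 with edgeR, 3018 with DESeq2 and 463 (without KO replicate 1) to 695 (without KO replicate 3) with 1 library left out, with 533 and 548 without WT replicates 2 and 3. Members changed at least 2-fold numbered 0 to 2 with 1 library left out (*Hamp* at 1.13 and *Hamp2* at 1.86 without KO replicate 3, *Hamp2* at 1.26 without WT replicate 3, *Tfrc* at -1.07 without WT replicate 2). Members with an unadjusted p under 0.05 numbered 1 without moderation (*Ftl1*) and 0 to 2 with 1 library left out (*Hamp* and *Hamp2* without KO replicate 3, *Tfrc* without WT replicate 2, *Hjv* at -0.83 without KO replicate 1).

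Signs turned for *Hamp2* (-0.52), *Tfr2* (-0.057), *Id1* (-0.52) and *Trf* (-0.091) without KO replicate 1, for *Hjv* (0.19), *Slc40a1* (0.022), *Smad7* (0.53) and *Bmp6* (-0.051) without KO replicate 3, and for *Tfrc* (0.081), *Smad7* (0.057) and *Bmp6* (-0.21) without WT replicate 3. They turned with upper quartile scaling for *Tfr2* (-0.062), *Bmp6* (-0.019) and *Trf* (-0.11), with a pseudocount of 5 for *Smad7* (0.0089), and with CPM, edgeR and DESeq2 for *Bmp6* (-0.015, -0.048 and -0.070) and *Acvr2a* (-0.96, -0.75 and -0.83). The CPM, edgeR and DESeq2 values rest on the count-based table, whose strand setting is not given. Whether those reads came from *Bmp6* and *Acvr2a* is unknown. With 1 library left out, the ranges were -0.52 to 1.86 for *Hamp2*, -0.057 to 0.20 for *Tfr2*, -0.83 to 0.19 for *Hjv*, -0.21 to 0.31 for *Bmp6*, -1.07 to 0.081 for *Tfrc*, -0.17 to 0.022 for *Slc40a1*, -0.091 to 0.15 for *Trf*, -0.63 to 0.53 for *Smad7* and -0.52 to 1.14 for *Id1*. With 1 library left out, the list medians ran from 0.070 without KO replicate 1 to 0.43 without KO replicate 3 for BMP-SMAD (0.13 with a pseudocount of 5) and from 0.0032 without KO replicate 1 to 0.52 without WT replicate 3 for IL-6-STAT3, and upper quartile scaling gave -0.00086 for IL-6-STAT3 and 0.043 for other iron genes. The causes were not tested. In the count-based table at most 3 genes of a list had more than 3 reads, so no list median was taken there, a limit set after seeing the data. TPM hides read depth, so the precision of low genes such as *Bmp6* is unknown.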
